A study of Mus musculus with 70 samples.

Results

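Adult mice of the Littman Cx3cr1CreERT2 line received tamoxifen or oil, and the transcriptome of their microglia was counted in 3 tamoxifen and 4 oil libraries. These are the 7 libraries, of 70 in the series, whose titles read Adult Littman TAM or Adult Littman Oil, and they fill a count table of their own. All 7 carried 1 Cx3cr1CreERT2(Litt) allele, in which the Cx3cr1 locus of the cell drives Cre fused to a tamoxifen-dependent receptor domain. Per the labels, adults were 6 to 15 weeks old and tamoxifen went into the peritoneum as 4 mg in 200 µl of oil, 2 times. Each library was made from 500 cells sorted from perfused brain as CD11b+ CD45+ Ly6G- CD206-, by CEL-Seq2, a method that counts the 3' ends of transcripts with molecular identifiers. No wild-type or Cre-negative animals were part of this set, so tamoxifen itself and the activity of Cre cannot be told apart. The labels do not give the interval between injection and collection, nor say that each replicate is a separate animal, so p-values measure the spread between these libraries.

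Microglia are the resident macrophages of the brain parenchyma, and Cx3cr1, the receptor for the neuronal chemokine fractalkine, is one of their defining surface proteins. CreERT2 stays in the cytoplasm until tamoxifen carries it into the nucleus, where Cre cuts DNA at loxP sites. Damage to DNA stabilises the transcription factor p53, which binds pairs of decamer half-sites and switches on Cdkn1a. Cdkn1a encodes p21, an inhibitor of cyclin-dependent kinases that holds cells in G1. Cytosolic DNA can also feed the type I interferon pathway, whose targets are antiviral proteins.

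Of 5512 genes tested, 1 passed an adjusted p of 0.05 (edgeR quasi-likelihood test, Benjamini-Hochberg adjustment): Cdkn1a rose 3.16-fold with tamoxifen. No gene fell past that threshold, and 70 genes were lower at an unadjusted edgeR p under 0.05. The called share was 0.0181% of all tested genes. At an unadjusted p under 0.05, 84 genes were higher (1.52%) and 70 lower (1.27%), 154 or 2.79% in all. DESeq2 and limma-voom each called 1 gene as well, again Cdkn1a. The median standard error of a log2 fold change was 0.30, the median log2 fold change over all genes was -0.0016, and 34 genes differed by 2-fold or more in the fitted means.

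**Figure D1:**
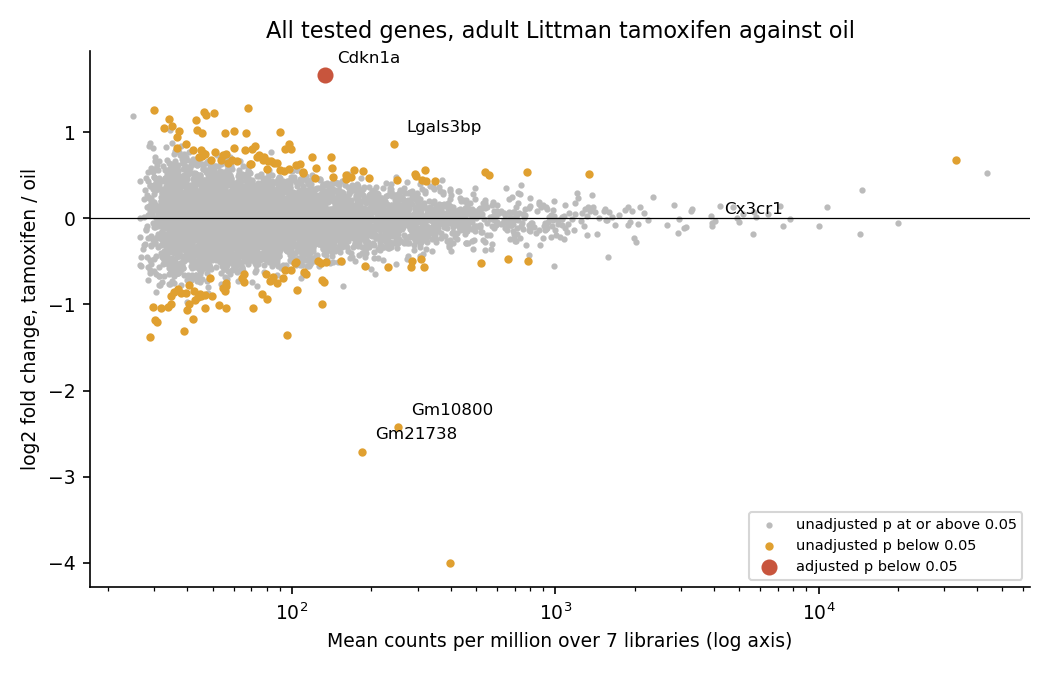
Log2 fold change (tamoxifen over oil, vertical axis) against mean CPM, counts scaled to a common library total, over the 7 libraries (log horizontal axis) for the 5512 tested genes. Orange points have an unadjusted p below 0.05 and the red point, Cdkn1a at 1.66, an adjusted p below 0.05.

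Levels are given as CPM, a gene's counts scaled to a common library total with TMM factors. A group mean carries its SD and a log2 fold change its standard error. Library totals lay between 288396 and 347941 counts, so 1 count is worth about as much in each library and a gene near 20 CPM rests on a few counts. The 12 microglia identity markers were all tested and none was called. Sparc, Csf1r, P2ry12 and Cx3cr1 were among the most abundant of them, and the summed marker level was 34255 to 39778 CPM with oil and 32738 to 38574 CPM with tamoxifen. Of the oil libraries, Oil 3 stood apart. Its median Spearman correlation with the other libraries was 0.789, against 0.850 to 0.868 for the other 6. The gene model CT010467.1 took 1.12% of its counts and 3.95% to 5.49% of theirs, and 81 ribosomal protein genes summed to 16135 CPM in it and to 24269 to 35611 CPM in the others. Transcripts of Xist and of Y-linked genes mark Oil 1 as the 1 male library and the other 6 as female. Results that rest on Oil 3 are therefore given with and without it. Without Oil 3, 7 genes of 5283 passed the threshold, 1 higher (0.0189%) and 6 lower (0.114%), of which those reported are described below.

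The sequence upstream of Cdkn1a, the only called gene, is shown because p53 is its best known regulator. The gene lies on chromosome 17 of GRCm38, from 29090976 to 29100727 on the plus strand (ENSMUSG00000023067). The RefSeq promoter table (GRCm38.p6) holds 2 windows for it, 1 for each transcript start, of 300 bases each, of which the 250 before the start are used here. In the upstream one, chr17:29090729-29090978 on the plus strand, capitals mark the 2 decamers that match the p53 half-site exactly. These 2 are not adjacent, and decamers that match only in part are not marked.

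Cdkn1a upstream promoter window: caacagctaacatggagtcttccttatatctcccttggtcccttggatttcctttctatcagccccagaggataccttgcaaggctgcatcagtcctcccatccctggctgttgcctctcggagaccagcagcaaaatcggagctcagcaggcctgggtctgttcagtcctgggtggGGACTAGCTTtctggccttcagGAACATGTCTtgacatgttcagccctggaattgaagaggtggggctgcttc

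The decamer GGACTAGCTT lies at 29090906 to 29090915, and GAACATGTCT at 29090928 to 29090937, which ends 41 bases before the RefSeq transcript start. The window ends at 29090978, past the gene start of 29090976 given above, which comes from another annotation. The window of the inner start, chr17:29093519-29093768, holds no match. Matches to the half-site (the p53 decamer consensus, both strands) occurred in 8.36% of 32851 whole 300-base mouse promoter windows and in 6.93% of 5596 windows of tested genes. Among the tested genes of the p53 list, 10 had windows, and 8 of their 13 windows (61.5%) held a match. A match is a string of letters and not evidence of binding. Mdm2, Bax, Ccng1, Ei24, Trp53, Rps27l and Sesn1 each have a window with such a match, and their levels did not pass the test.

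Cdkn1a stood at 46.3, 68.6, 86.8 and 74.0 CPM in Oil 1 to 4, and at 242, 217 and 199 CPM in the 3 tamoxifen libraries. In raw counts these are 13, 20, 25 and 20 molecules against 67, 62 and 60. Every tamoxifen library lay above every oil library, with a wide gap between the groups. The means were 68.9 ± 16.9 CPM (SD, n = 4) and 219 ± 22.0 CPM (SD, n = 3), a log2 fold change of 1.66 ± 0.235 with a 95% interval of 1.17 to 2.16 and an adjusted p of 0.00905 (edgeR). It was the largest positive log2 fold change of all tested genes, ahead of the gene model Gm47283 at 1.28. Without Oil 3 the log2 fold change was 1.79 and the adjusted p 4.41e-05.

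The size of the Cdkn1a difference held under each alternative run, between 1.51 and 1.79, and its call did not. It was past the threshold under 9 of 15 alternatives. The adjusted edgeR p became 0.0679 without Oil 1, 0.0760 without Oil 2, 0.110 without TAM 1 and 0.104 without TAM 2. With sex as a covariate, which sets the male library Oil 1 aside, the log2 fold change was 1.51 and the adjusted p 0.0641.

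**Figure D2:**
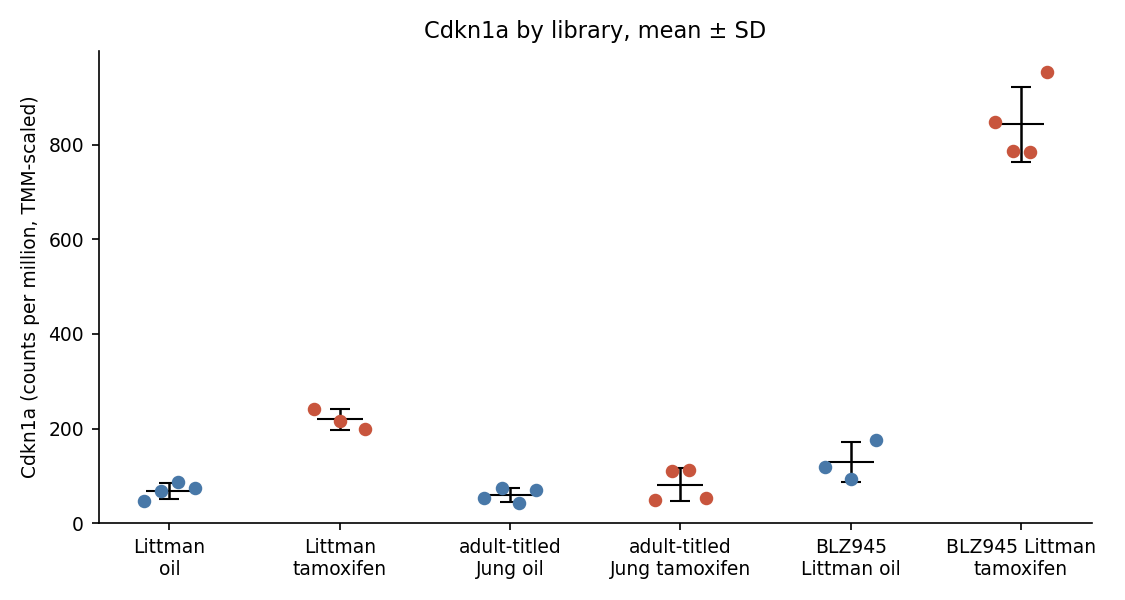
Cdkn1a in CPM (TMM-scaled, linear axis from 0) for each library of 3 sets; points are libraries, bars the mean ± SD, blue oil and red tamoxifen. Adult Littman tamoxifen libraries lie at 199 to 242 CPM, above all oil libraries of the 3 sets, and BLZ945 Littman tamoxifen libraries at 786 to 953 CPM.

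Besides Cdkn1a, the p53 and DNA damage list had 10 tested members and none of them was called. The list holds 36 genes, of which 34 are in the table and 11 passed the filter on low counts. Its median log2 fold change was 0.09, beside -0.0016 over all genes, with 7 of the 11 above 0. Only Cdkn1a had groups that did not overlap, where 2.5% of all tested genes had every tamoxifen library above every oil library and 1.69% every one below. Among the regulators, Mdm2, the ubiquitin ligase that degrades p53 and is itself a p53 target, gave 67.7, 75.5, 121 and 99.9 CPM with oil and 65.1, 105 and 43.0 CPM with tamoxifen. Its log2 fold change was -0.36 ± 0.318 and its groups overlapped. Trp53, which encodes p53, had a log2 fold change of -0.20 ± 0.214.

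Of the effectors, Bax, the pore-forming death protein, gave 60.6, 41.2, 24.3 and 74.0 CPM with oil and 65.1, 59.5 and 82.8 CPM with tamoxifen. The groups overlapped, and the log2 fold change was 0.48 ± 0.345. Ddit4, an inhibitor of mTORC1 that stress and glucocorticoids also induce, gave 99.8, 110, 41.6 and 33.3 CPM against 148, 70.0 and 156 CPM. Its log2 fold change was 0.80 ± 0.367, with an unadjusted edgeR p of 0.0429 and an adjusted p of 0.998. Btg2, an antiproliferative factor that is also an immediate early gene, was lower in the mean, 309 ± 95.5 against 223 ± 23.8 CPM, with a log2 fold change of -0.47 ± 0.244. The log2 fold changes of the other tested members were 0.58 for Ei24, 0.43 for Trp53inp1, 0.09 for Rps27l, 0.06 for Sesn1 and -0.25 for Ccng1, none called.

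The other 23 listed genes in the table were below the filter. Bbc3, which encodes the death activator PUMA, had 4, 2, 0 and 6 counts with oil and 0, 3 and 2 with tamoxifen. Gadd45a, a growth arrest gene, had 3, 1, 3 and 2 against 2, 1 and 0 counts. Such counts cannot show a difference at this depth. Summed over the list without Cdkn1a, the level was 1013 to 1311 CPM with oil and 1152 to 1274 CPM with tamoxifen, so the groups overlapped. The overlap rested on Oil 3, at 1013 CPM. The other oil libraries, at 1277 to 1311 CPM, lay just above all tamoxifen libraries. Without Oil 3 the list had again 1 call, Cdkn1a, and a median of 0.01. Btg2 then had every tamoxifen library below every oil library, with a log2 fold change of -0.66 and an adjusted edgeR p of 0.107.

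Genes that sense and repair DNA breaks were not called. Of the 30 on that list 7 were tested, with a median log2 fold change of 0.08 and 4 above 0. Rad50, a subunit of the break-binding MRN complex, gave 64.1, 75.5, 79.8 and 55.5 CPM with oil and 137, 87.5 and 72.8 CPM with tamoxifen. The third tamoxifen library lay inside the oil range, and the log2 fold change was 0.52 ± 0.282. Atr, the kinase of stalled forks, had a log2 fold change of 0.17 ± 0.392 and Brca2, a homologous recombination factor, of -0.12 ± 0.403.

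Among CDK inhibitors, Cdkn1a alone was called. Cdkn1b, which encodes p27, gave 331, 316, 250 and 344 CPM with oil and 420, 420 and 341 CPM with tamoxifen. TAM 3 fell within the oil range, and the log2 fold change was 0.34 ± 0.189. Cdkn1c, which encodes p57, had a log2 fold change of -0.08 ± 0.585. The list of CDK inhibitors and senescence genes had 5 tested members and a median of -0.08.

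Cell cycle genes were not called, and 8 of the 9 tested lay above 0 with a median log2 fold change of 0.18. Tubb5, a beta tubulin, gave 549, 436, 378 and 451 CPM with oil and 655, 623 and 695 CPM with tamoxifen. All 3 tamoxifen libraries were above the oil libraries, and the log2 fold change was 0.54 ± 0.177 (unadjusted edgeR p of 0.00744, adjusted p 0.998). Cdk4, the G1 kinase that p21 binds, had a log2 fold change of 0.34 ± 0.289 and Pcna, the replication clamp, of 0.22 ± 0.341. Over all 43 listed genes the summed level was 1177 to 1265 CPM with oil and 1523 to 1844 CPM with tamoxifen. Tubb5 was the member with the largest difference between group means in CPM. Without Tubb5 the sum was 716 to 861 CPM and 868 to 1149 CPM, so the groups came close, with Oil 3 the highest oil library.

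Most genes specific to dividing cells were too sparse to test. Mki67, a marker of cycling cells, had 0, 0, 8 and 2 counts with oil and 6, 2 and 14 with tamoxifen. Top2a, the mitotic topoisomerase, had 0, 0, 7 and 3 against 3, 10 and 16 counts. Rrm2, a subunit of ribonucleotide reductase, had no count in any oil library and 3, 3 and 4 in the tamoxifen libraries. Oil 3 and TAM 3 held the most Mki67 counts in their groups, so the counts varied widely within both groups. Without Oil 3, all 9 tested cell cycle genes lay above 0 with a median of 0.10 and none was called.

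**Figure D3:**
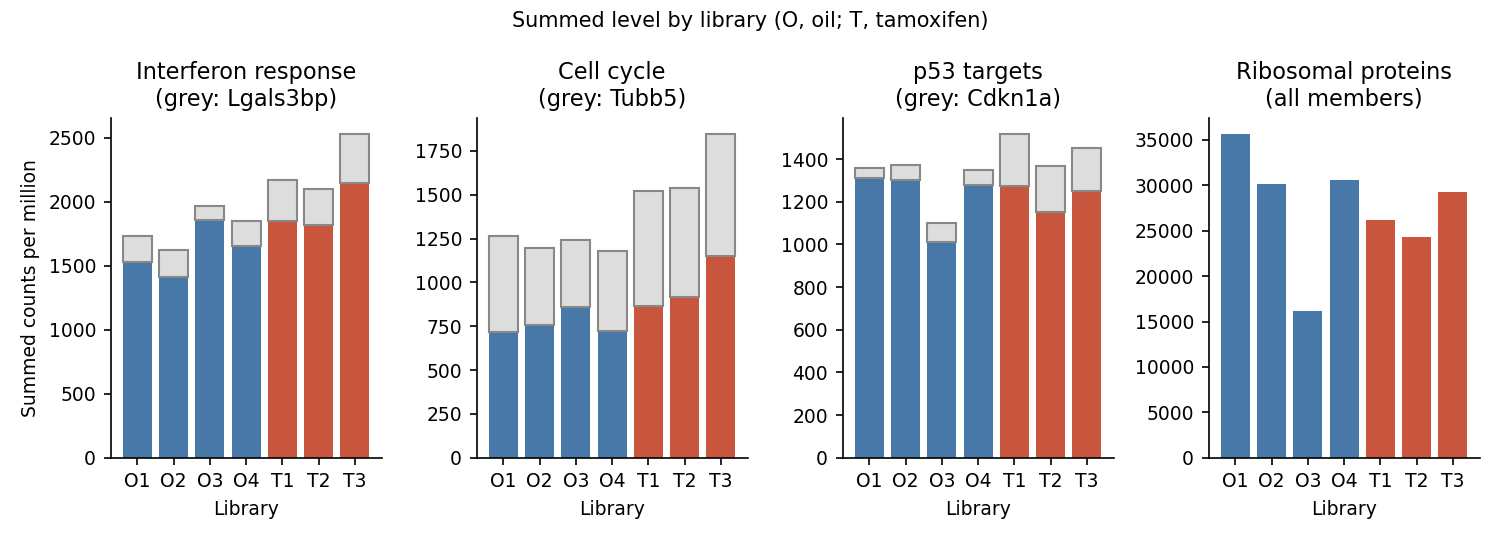
Summed level in CPM (linear axes from 0) of 3 gene lists and of 81 ribosomal protein genes in each library (O1 to O4 oil, T1 to T3 tamoxifen). In the 3 list panels, grey is the member with the largest difference between group means in CPM, and colour the rest. The interferon and cell cycle sums of the tamoxifen libraries lie above those of all oil libraries, and Oil 3 has the lowest ribosomal protein sum at 16135 CPM.

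Interferon-response genes were not called, and 13 of 18 tested lay above 0 with a median log2 fold change of 0.17. Lgals3bp, a secreted scavenger-receptor protein induced by interferon, gave 207, 216, 108 and 192 CPM with oil and 318, 280 and 384 CPM with tamoxifen. The tamoxifen libraries were all above the oil libraries, and Oil 3 was the lowest. Its log2 fold change was 0.86 ± 0.231 (unadjusted edgeR p of 0.00167, adjusted p 0.998), and 0.67 without Oil 3. Rtp4, an interferon-induced chaperone of receptors, gave 24.9, 17.1, 38.2 and 37.0 CPM against 65.1, 35.0 and 106 CPM. TAM 2 lay within the oil range, and the log2 fold change was 1.23 ± 0.403.

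Ccl12, a chemokine, had a log2 fold change of 0.79 ± 0.338 and Slfn8 of 0.57 ± 0.302, the second with groups that did not overlap. Of the signalling factors of the pathway, Stat2 had a log2 fold change of 0.17 ± 0.401 and Irf9 of 0.17 ± 0.249. Classical targets were sparse: Ifit3 had 2, 1, 1 and 4 counts with oil and 5, 2 and 3 with tamoxifen, and Isg15, a ubiquitin-like modifier, 1, 2, 4 and 5 against 4, 6 and 7. Cxcl10 had 2 counts in Oil 4, 1 in TAM 1 and none elsewhere. Summed over the 52 listed genes in the table, the level was 1626 to 1964 CPM with oil and 2097 to 2527 CPM with tamoxifen. Without Lgals3bp, the member with the largest difference between group means in CPM, the sums were 1410 to 1857 CPM and 1817 to 2142 CPM and overlapped. The overlap rested on Oil 3, at 1857 CPM. The other oil libraries, at 1410 to 1654 CPM, lay below all tamoxifen libraries. TAM 3 held the highest sum and also the highest share of mitochondrial rRNA, 7.41% of its counts against 2.13% to 4.47% in the others; the part of that share in the sums was not tested. Without Oil 3, 16 of 17 tested members lay above 0 with a median of 0.25, and none was called. Of these 17, 4 were higher at an unadjusted edgeR p under 0.05, where 4.2% of all tested genes were, and 3 had every tamoxifen library above every oil library, where 6.85% of all did.

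In antigen presentation, 15 genes were tested and none was called, with a median log2 fold change of 0.01. Without Oil 3 the median was -0.10, 4 of the 15 lay above 0 and none was called. At an unadjusted edgeR p under 0.05, 3 were then lower and 0 higher, where 4.73% of all tested genes were lower. For 3 every tamoxifen library lay below every oil library and for 1 above, where the shares of all were 6.76% and 6.85%. H2-K1, a class I heavy chain, gave 388, 418, 403 and 411 CPM with oil and 456, 476 and 500 CPM with tamoxifen, without overlap. Its log2 fold change was 0.24 ± 0.169. H2-T23, a non-classical class I gene, gave 135, 110, 27.8 and 111 CPM against 39.8, 38.5 and 76.2 CPM. Oil 3 was below all tamoxifen libraries and the other oil libraries were above them, and the log2 fold change was -0.88 ± 0.414 (unadjusted edgeR p of 0.0481). Without Oil 3 it was -1.19 with an adjusted p of 0.0730, and the groups did not overlap. Class I genes have near copies that may share reads, so their values are uncertain. Class II genes were below the filter. H2-Aa had 0, 0, 0 and 12 counts with oil and 0, 0 and 0 with tamoxifen, and H2-Eb1 0, 0, 0 and 13 against 1, 1 and 0. Cd74 had 7, 4, 0 and 22 against 3, 7 and 2 counts, so Oil 4 held the most of each. H2-Ab1 did not follow, at 3, 6, 3 and 4 against 0, 1 and 3 counts. Which cells these counts came from was not tested.

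Cx3cr1, the locus that carries Cre, did not pass the test. It gave 3980, 4572, 3807 and 3826 CPM with oil and 4009, 3648 and 3738 CPM with tamoxifen. The means were 4046 ± 359 (SD, n = 4) and 3798 ± 188 CPM (SD, n = 3), with a log2 fold change of -0.09 ± 0.152 and an adjusted edgeR p of 0.998. All 7 libraries carry the same allele, so this checks no genotype label.

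All 44 homeostatic microglia genes were tested and none was called, with 15 above 0 and a median of -0.04. P2ry12, a purinergic receptor of process motility, gave 5330, 5505, 3231 and 5595 CPM with oil and 4504, 3662 and 6613 CPM with tamoxifen. Its log2 fold change was 0.00 ± 0.217, with Oil 3 the lowest library. Spi1, which encodes the myeloid factor PU.1, gave 281, 336, 90.2 and 266 CPM against 134, 154 and 179 CPM. Trem2, a lipid-sensing receptor that is also on the disease-associated list, gave 1122, 912, 538 and 1010 CPM against 619, 711 and 666 CPM. For both genes Oil 3 lay below all tamoxifen libraries, and the other oil libraries lay above them.

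With all libraries the log2 fold change of Spi1 was -0.64 ± 0.316 and that of Trem2 -0.43 ± 0.214, with adjusted p-values of 0.998. Without Oil 3 both fell past the threshold. Spi1 was then 292 ± 36.1 against 154 ± 22.2 CPM, a log2 fold change of -0.92 and an adjusted edgeR p of 0.0326. Trem2 had a log2 fold change of -0.61 and an adjusted p of 0.0487. Summed ribosomal protein genes had the same order, at 30165 to 35611 CPM in the other 3 oil libraries, 24269 to 29279 CPM with tamoxifen and 16135 CPM in Oil 3. Their part in the Spi1 and Trem2 values was not tested.

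Without Oil 3 the disease-associated list had 7 of 22 tested members at an unadjusted edgeR p under 0.05 and lower, where 4.73% of all tested genes were, and 6 with every tamoxifen library below every oil library, where 6.76% of all were. With Oil 3 it had none of either among 23. Homeostatic genes, 44 tested, went from 1 to 6 lower at that unadjusted p and from 0 to 3 higher. Lysosomal genes went from 1 of 38 to 4 of 37 lower, with 0 higher either way. Over all tested genes the lower share was 1.27% with Oil 3 and 4.73% without, and the higher share 1.52% and 4.2%. These counts thus depend on 1 library.

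Of the lysosome and autophagy list, 38 genes were tested, none was called and the median was -0.06. Mcoln1, a lysosomal calcium channel, was 45.3 ± 10.0 CPM with oil and 25.5 ± 2.42 CPM with tamoxifen. The groups did not overlap, and the log2 fold change was -0.82 ± 0.369. Of 19 tested inflammatory and NF-kB genes none was called and the median was -0.01. Nlrp3, the inflammasome sensor, had a log2 fold change of 0.58 ± 0.266 and Myd88, the Toll-like receptor adaptor, of 0.43 ± 0.229 without overlap.

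Tamoxifen acts on estrogen receptors and binds enzymes of sterol synthesis, so both target lists were read. The estrogen list had 5 tested genes, none called, a median log2 fold change of 0.12, and Myc at 0.64 ± 0.415. Only 4 of 26 sterol synthesis genes were tested, with a median of -0.04, and 12 sterol efflux genes had a median of 0.07, none called. Ebp, the sterol synthesis gene of smallest p, gave 132, 123, 38.2 and 152 CPM with oil and 79.6, 102 and 89.4 CPM with tamoxifen. Its log2 fold change was -0.30 ± 0.337. Without Oil 3 it was -0.59 (unadjusted edgeR p of 0.0154, adjusted p 0.400), and the groups did not overlap. Msmo1, a sterol oxidase, gave 53.4, 51.5, 52.1 and 48.1 CPM with oil and 54.3, 38.5 and 69.5 CPM with tamoxifen.

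Glucocorticoid-responsive genes had the highest median of the 16 pathway lists, 0.24 over 8 tested genes, and none was called. Fkbp5, a co-chaperone of the glucocorticoid receptor, gave 103, 99.5, 104 and 66.6 CPM with oil and 134, 126 and 199 CPM with tamoxifen. The groups did not overlap, and the log2 fold change was 0.71 ± 0.248 (unadjusted edgeR p of 0.0107). Sgk1, a kinase induced by glucocorticoids, had a log2 fold change of 0.35 ± 0.183 and Tsc22d3, which encodes GILZ, of 0.12 ± 0.292. Without Oil 3 the list median was -0.06 over 7 genes. Genes of the unfolded protein response (10 tested, median 0.12) and of the antioxidant response (13 tested, median 0.04) had no call.

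Immediate early and dissociation genes, which rise when tissue is handled, had a median of -0.19 over 16 tested genes, with 4 above 0 and none called. Hsp90ab1, a chaperone, was 901 ± 195 CPM with oil and 640 ± 130 CPM with tamoxifen, with Oil 3 inside the tamoxifen range. Without Oil 3 its groups did not overlap, and the log2 fold change was -0.63 with an adjusted edgeR p of 0.0522. The list then had 4 of 16 members lower at an unadjusted edgeR p under 0.05, against 1 with Oil 3, and 3 with every tamoxifen library below every oil library, against none, where the shares of all tested genes were 4.73% and 6.76%. Jun, an early response factor, had the opposite sign, 0.41 ± 0.211. The 7 tested mitochondrial mRNAs had a median of 0.03.

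**Figure D4:**
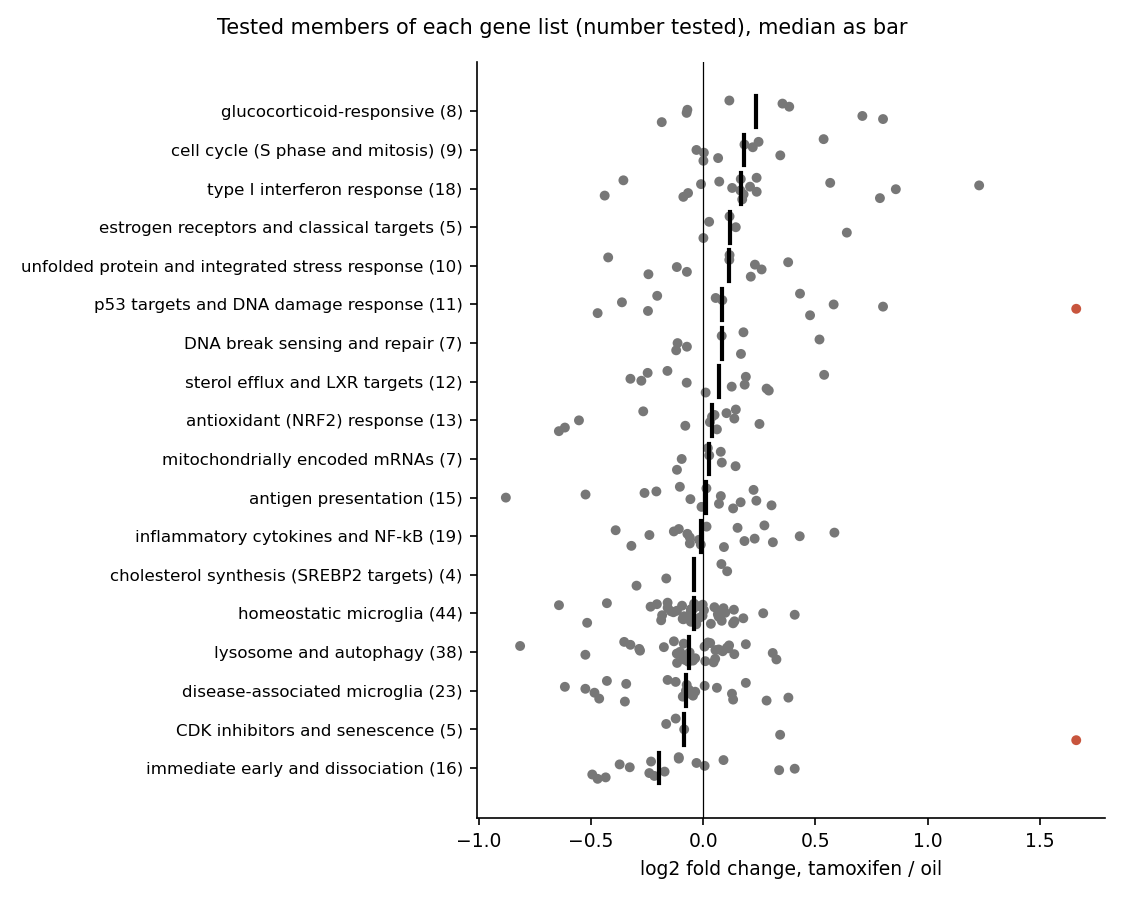
Log2 fold change (tamoxifen over oil) of each tested member of 18 gene lists (16 pathway, 2 technical), with the number tested in parentheses and the median as a black bar. List medians lie between -0.19 and 0.24, and Cdkn1a at 1.66, the only called gene, is drawn in red in each of its 2 lists.

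Outside the lists, the 12 genes of smallest p in each direction were read as values, since only Cdkn1a among them passed the adjustment and the others had an adjusted p of 0.998. All 24 kept their direction under every alternative in which they were tested. The alternatives mostly refit the libraries in which these genes were chosen, so this is no independent support. Every tamoxifen library was above every oil library for 11 of the 12 higher genes and below for 7 of the 12 lower genes, a pattern that follows from choosing small p-values. Oil 3 was the lowest oil library for 8 of the 12 higher genes.

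Smc4, a condensin subunit, gave 35.6, 41.2, 13.9 and 37.0 CPM with oil and 65.1, 80.5 and 79.5 CPM with tamoxifen. The groups were apart, with a log2 fold change of 1.23 ± 0.343. Ankrd11, a chromatin regulator that also binds p53, gave 264, 257, 257 and 285 CPM against 423, 427 and 325 CPM. Its oil libraries agreed closely, and the log2 fold change was 0.56 ± 0.185. Bhlhe41, a clock-linked repressor of macrophage and microglial programmes, was 656 ± 89.3 CPM with oil and 949 ± 93.4 CPM with tamoxifen, a log2 fold change of 0.53 ± 0.170.

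Bmp2k, a clathrin-associated kinase, gave 1325, 1149, 923 and 1132 CPM with oil and 1520, 1663 and 1656 CPM with tamoxifen. It was the most abundant of the higher genes, and its log2 fold change was 0.51 ± 0.163. Trib1, a pseudokinase that directs degradation of C/EBP factors, gave 85.5, 113, 146 and 96.2 CPM against 188, 175 and 182 CPM. The tamoxifen libraries agreed closely, with a log2 fold change of 0.72 ± 0.225. B3galnt1, a glycosyltransferase, Manbal, a membrane protein, had log2 fold changes of 0.99 and 1.26. Ric1, a trafficking factor, was 30.2 ± 12.1 CPM with oil and 69.6 ± 33.7 CPM with tamoxifen.

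Without Oil 3, the lower calls included gene models that spread widely among the oil libraries. Gm21738 gave 271, 628, 226 and 37.0 CPM with oil and 39.8, 73.5 and 19.9 CPM with tamoxifen. Oil 4 lay within the tamoxifen range. Gm10800 spread likewise, and the groups of both, and of the gene model Gm12366, overlapped also without Oil 3.

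Nup85, a nuclear pore scaffold, gave 39.2, 44.6, 34.7 and 40.7 CPM with oil and 18.1, 17.5 and 16.6 CPM with tamoxifen. Spread was small in both groups, and the log2 fold change was -1.18 ± 0.401. Thoc7, a subunit of the mRNA export complex THO, gave 64.1, 61.7, 38.2 and 44.4 CPM against 36.2, 7.00 and 19.9 CPM, a log2 fold change of -1.30 ± 0.442. Cbll1, a ubiquitin ligase tied to RNA methylation, gave 57.0, 44.6, 65.9 and 48.1 CPM against 28.9, 24.5 and 29.8 CPM. Bin1, a membrane-bending protein, was 601 ± 120 CPM with oil and 420 ± 19.2 CPM with tamoxifen. Dynlrb1, a dynein light chain, was 129 ± 40.0 against 71.9 ± 6.85 CPM, and for both genes Oil 3 lay within the tamoxifen range. Without Oil 3 their groups did not overlap, and the log2 fold changes were -0.64 for Bin1 and -1.05 for Dynlrb1, each with an adjusted edgeR p of 0.0522.

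Lrig3, a membrane regulator of growth factor receptors, gave 39.2, 37.7, 55.5 and 25.9 CPM with oil and 10.9, 10.5 and 23.2 CPM with tamoxifen, a log2 fold change of -1.38 ± 0.465. Knop1, Tasor2, Snx24, Rcbtb2 and Rsbn1 had log2 fold changes between -1.04 and -0.72. Tasor2 is a paralogue of a silencing-complex subunit and Snx24 a sorting nexin, and Oil 1, at 39.2 CPM, lay within the tamoxifen range for Snx24.

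**Figure D5:**
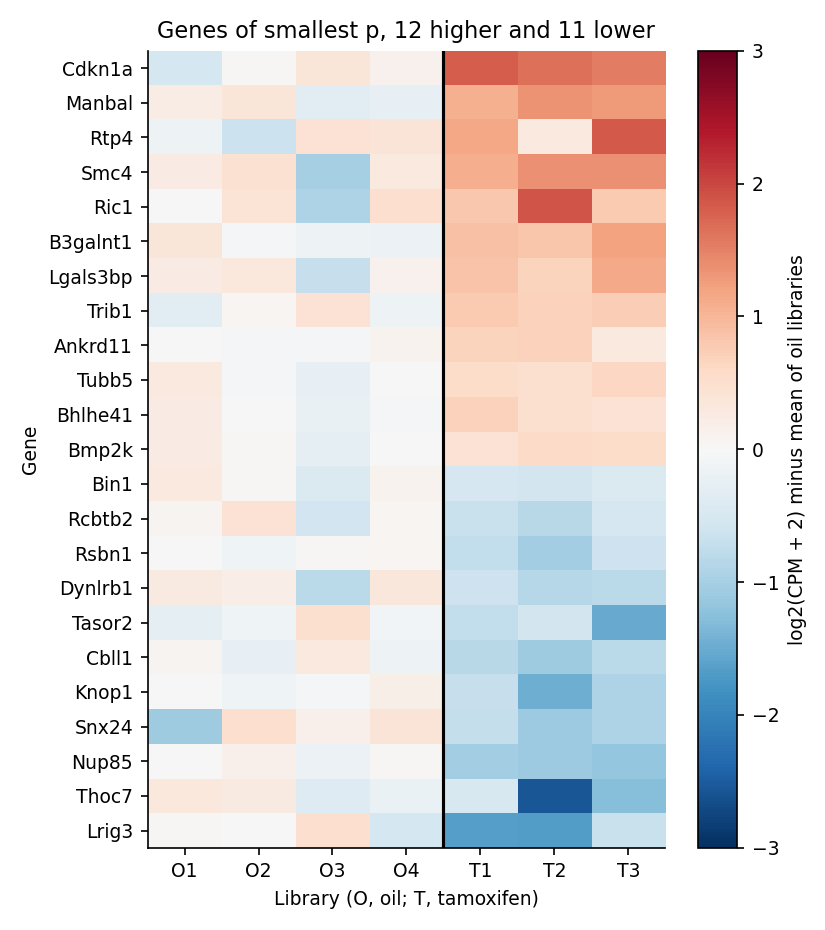
Heat map of genes of smallest p, 12 higher and 11 lower (rows), over the 7 libraries (O1 to O4 oil, T1 to T3 tamoxifen); colour is log2(CPM + 2) minus the mean of the oil libraries, limited to ±3. Cdkn1a is high in all 3 tamoxifen libraries, and Nup85 is low in all 3.

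Markers of other cells were summed per library. Over the listed genes in the table, monocyte markers made 11.1 to 17.8 CPM with oil and 14.5 to 39.7 CPM with tamoxifen, and Ccr2, the defining receptor of inflammatory monocytes, had 3, 3, 3 and 2 counts with oil and 1, 6 and 2 with tamoxifen. Erythroid markers made at most 3.70 CPM. Neuron markers made 143 CPM in Oil 1, 27.4 to 38.2 in the other oil libraries and 18.1 to 56.0 CPM with tamoxifen. Without Meg3, a noncoding RNA, they made 13.9 to 17.1 CPM with oil and 14.5 to 21.0 CPM with tamoxifen, while Tubb3 and Gad2 had no count. Endothelial and mural markers made 38.2 to 70.3 CPM with oil and 54.3 to 76.2 CPM with tamoxifen. Border macrophage markers made 85.7 to 144 CPM with oil and 83.2 to 105 CPM with tamoxifen. Without Stab1 they made at most 17.1 CPM with oil and 21.7 CPM with tamoxifen, where Mrc1, which encodes CD206, had 1, 2, 0 and 1 counts against 4, 0 and 2, while F13a1, Ms4a7 and Clec12a had no count. Neutrophil markers rested on Csf3r, at 423 ± 27.4 CPM with oil and 377 ± 2.65 CPM with tamoxifen, lymphocyte markers on Ighm, at 375 ± 58.6 and 410 ± 65.3 CPM, and astrocyte markers on Slc1a3, at 311 ± 51.2 and 337 ± 47.1 CPM, with Slc1a2 and Slco1c1 at 0. The part of these 3 genes in the results was not tested. Oligodendrocyte markers made 141 to 187 CPM and 97.7 to 156 CPM. In bulk libraries fewer cells of a type and less RNA per cell cannot be told apart.

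To see whether the adult Littman response differs from that of the other Cx3cr1CreERT2 line, it was set against adult-titled Jung libraries, 4 tamoxifen and 4 oil. Their genotype is given as Cx3cr1CreERT2(Jung) Hetero. Their treatment label names BLZ945, a CSF1R inhibitor, while their title does not, so what they received is uncertain. Cdkn1a stood at 52.5, 74.8, 42.9 and 70.6 CPM with oil and at 48.8, 110, 113 and 54.1 CPM with tamoxifen there. Their groups overlapped, at 60.2 ± 15.0 and 81.5 ± 34.7 CPM (SD, n = 4 each), a log2 fold change of 0.43 ± 0.319. The difference of the responses, Littman minus Jung, was 1.23 ± 0.400 on the log2 scale with a 95% interval of 0.41 to 2.06, an unadjusted edgeR p of 0.00493 and an adjusted p of 1.000 over 6256 genes. None of the 6256 genes passed the threshold (0%), and 174 had an unadjusted p under 0.05 (2.78%); DESeq2 and limma-voom called none either.

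For other named genes, no difference between the lines passed the adjustment. Of the 24 genes of smallest p, chosen for their Littman response, 15 had an unadjusted p under 0.05 for this difference, a share that the choice inflates. Lgals3bp had a log2 fold change of 0.86 in Littman and 0.10 in Jung libraries, with a difference of 0.76 ± 0.335. Trib1 had 0.72 and 0.04, with a difference of 0.69 ± 0.287. Knop1 had -1.04 and 0.29, with a difference of -1.32 ± 0.418. Each line fills its own table, so line and table cannot be told apart.

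The same Littman line was also studied with BLZ945, a CSF1R inhibitor given at 100 mg per kg by mouth for 5 days, in 4 tamoxifen and 3 oil libraries. There Cdkn1a stood at 119, 93.9 and 175 CPM with oil and at 847, 786, 786 and 953 CPM with tamoxifen. The groups were far apart, at 129 ± 41.4 (SD, n = 3) and 843 ± 79.0 CPM (SD, n = 4), and the log2 fold change was 2.70 ± 0.270, 1 of 3 calls among 5163 tested genes (0.0581%). Without BLZ945 the adult response was smaller by a log2 difference of -1.02 ± 0.331, with a 95% interval of -1.70 to -0.34, an unadjusted edgeR p of 0.00444 and an adjusted p of 0.989 over 5730 genes. None of the 5730 genes passed the threshold (0%), and 249 had an unadjusted p under 0.05 (4.35%); DESeq2 and limma-voom called none. The drug and the table cannot be told apart here either.

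For Ddit4 the BLZ945 set had a log2 fold change of 3.43 and the adult set 0.80, with a difference of -2.63 ± 1.11. H2-K1 had 0.97 and 0.24, with a difference of -0.72 ± 0.267. Rtp4 went the other way, at -0.14 with BLZ945 and 1.23 without, a difference of 1.38 ± 0.449. These 3 differences had unadjusted edgeR p-values of 0.0253, 0.0115 and 0.00448, and none passed the adjustment. Rtp4 is among the genes of smallest p, chosen for their adult Littman response. Of those genes, 22 were tested for this difference, and 4 had an unadjusted edgeR p under 0.05. The choice inflates that share, and the share over all tested genes was 4.35%.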

How the data were processed

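Sorted microglia of the adult Littman set were sequenced by CEL-Seq2, with molecular identifiers of 10 nt, per the labels. The authors deposited raw counts, whole numbers for every gene in every library. Per the submitters' processing notes the tools were featureCounts, HISAT2, Trim Galore and UMI-tools, on GRCm38; for their versions, the strand setting and shared reads, nothing was found (not given in the sources used here). No count column was left unmapped. The adult Littman table was analysed alone, using edgeR 4.0.16 under R 4.3.3 (TMM, filterByExpr by group, quasi-likelihood test, Benjamini-Hochberg over tested genes, call at adjusted p under 0.05), the BLZ945 Littman contrast with all groups of its table. Differences between sets were contrasts of 1 fit over genes in both tables, 16013 with Jung and 15817 with BLZ945 Littman. Alternatives were DESeq2 1.42.0, limma-voom 3.58.1, RLE factors, other filters, a replicate block, a sex covariate, a spread shared with Jung, and each library left out. The code was tested on simulated data.

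Named genes were Cdkn1a, Cx3cr1, the called genes, the 12 of smallest p in each direction at a mean of 20 CPM or more without predicted models, and up to 3 per list, of which the text gives a selection. Further listed members were named for their role, after their values were seen. Members and lists were chosen with earlier results of these data known. Listed members below the filter are given as counts. Samples were grouped by title. Some items are not reported here.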

Additional observations from a re-analysis of the deposited data

Results flagged for a closer look

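Of 120 quantities (named genes, library measures and list sums), each read over a group of 4 libraries, 9 had 1 library far from the other 3. Chance would single out about 1 in 20 if the quantities were independent. Most were read in the same 4 oil libraries, and many genes were chosen by p-value there, so that rate does not apply. Oil 3 was the library apart in 7 of the 9. It was low for P2ry12 (3231 CPM, the other oil libraries 5330 to 5595), Pcna (24.3 CPM, 46.3 to 48.1) and mt-Nd1 (2652 CPM, 3317 to 3442). The share of CT010467.1 was 1.12% in it and 3.95% to 4.22% in the others. Summed levels were also low in Oil 3 for the p53 list (1100 CPM, 1351 to 1372), disease-associated genes (12435 CPM, 20088 to 20291) and lysosomal genes (29646 CPM, 35245 to 35814). Oil 4 was low for Fkbp5, at 66.6 CPM against 99.5 to 104. Oil 1 was high for neuron markers, at 143 CPM against 27.4 to 38.2, and that sum was mostly Meg3.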

How the results depend on the processing

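The count of called genes, 1 in the main analysis, ranged from 0 to 7 when each library was left out. It was 7 without Oil 3, 3 without Oil 4 (Cdkn1a, Gm10800 and Gm21738), 1 without TAM 3 and 0 without Oil 1, Oil 2, TAM 1 or TAM 2. It was 10 with no low-count filter, among them the Y-linked Ddx3y and Eif2s3y, and 0 with the sex covariate. The log2 fold change of Cdkn1a ranged from 1.51 to 1.79 when each library was left out and was 1.51 with the sex covariate. With RLE factors, DESeq2, limma-voom, at least 10 counts in 3 libraries and a spread shared with Jung it stayed called. For the difference from Jung, no low-count filter gave 12 called genes; for that from BLZ945 Littman it gave 9, and leaving out each library gave 0 to 1 (Xist, without Oil 1).

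Deviations of same-numbered tamoxifen and oil libraries from their group means correlated at -0.00108, -0.121 and -0.194. Those of differently numbered libraries correlated at -0.100 to 0.179. So few libraries cannot show whether the replicate numbers pair the samples. With the number as a replicate block, 2 genes were called (Gm10800 and Gm21738), and the log2 fold change of Cdkn1a was 1.71 with an adjusted edgeR p of 0.128. In the difference from Jung the block called 1 gene, Ddx3y. Directions of list medians held under every alternative for the p53, cell cycle and interferon lists, at 0.01 to 0.27, 0.03 to 0.59 and 0.10 to 0.37. The p53 list includes Cdkn1a. Directions held likewise for the estrogen list (0.01 to 0.24), the immediate early list (-0.27 to -0.0041) and the neutrophil and oligodendrocyte markers. They did not hold for other lists, among them the glucocorticoid list (-0.06 to 0.38) and the disease-associated list (-0.20 to 0.03). Depth limited the comparison to 5512 of the 18557 genes in the table.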
